A study of Arabidopsis thaliana with 16 samples.

Results

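The genes described here are those whose transcripts stood above the water control both after salt and after methyl viologen (MV), in wild-type Arabidopsis seedlings and in seedlings overexpressing a rice glutaredoxin. A probe set is the group of short array probes that reports on 1 transcript or a few. A probe set was a member when the MV minus water and the NaCl minus water differences of its group means were both at least 0.8 on the log2 scale in both lines, and at least 1 of the 8 group means was 4 or more. The members were thus chosen on their measured levels. The rule selected 127 of the 22746 probe sets that are not Affymetrix controls. Of these members, 57 report on exactly 1 gene in the platform annotation, 7 on several genes and 63 are unnamed here. Genes are named below from the first kind only, 10 of them by a symbol and the others by their locus code.

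The study asked how a line overexpressing OsGRX8, a CC-type glutaredoxin of rice, differs from wild type (WT) with and without stress. Whole Columbia seedlings, 14 days old, were raised on MS medium under 16 h of light and 8 h of dark. They were then kept for 3 h in water, in 100 µM indole-3-acetic acid (IAA, the plant hormone auxin), in 200 mM NaCl or in 25 µM MV. Each combination of line and condition was measured on 2 Affymetrix ATH1 arrays, 16 arrays in all, which the design text calls biological replicates. The overexpression line is called GRX below. The sources used here do not give the promoter that drives its transgene or the number of independent insertions, and the level of the rice transcript was not analysed here. In whole seedlings, a change in the share of a cell type and a change in RNA per cell cannot be told apart.

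Salt stresses a plant in several ways: it withdraws water, brings toxic ions into the cell and leads to the formation of reactive oxygen species. Methyl viologen, the herbicide paraquat, accepts electrons at photosystem I and hands them on to oxygen, so that superoxide and then hydrogen peroxide form in the chloroplast. Plants answer both with transcription factors of the ERF, WRKY and zinc finger families, with enzymes that detoxify reactive compounds, and with chaperones and protective proteins. Glutaredoxins are small oxidoreductases that use glutathione to reduce disulfides. Plant CC-type glutaredoxins such as GRX480 also bind TGA transcription factors.

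All values are log2 summaries from RMA (robust multi-array average), so that a difference of 1 is a 2-fold ratio. Errors are standard errors (SE) of a limma fit of 8 group means to the 16 arrays. A call is a Benjamini-Hochberg adjusted p under 0.05 over all 22746 probe sets, two-sided. Array medians ranged from 2.94 to 3.20, and the bacterial trp control, for which no RNA was added, read between 0.79 and 1.21. In IAA replicate 2 of each line, the 3′ probe set of actin exceeded the 5′ one by 6.10 in WT and by 4.43 in GRX, against 1.13 to 2.57 on the other 14 arrays. Of the root markers, PYK10 read 8.62 to 9.69 on all arrays and was not called in either stress. EXPA7, a root hair expansin gene, read 1.14 to 2.30 and was lower in NaCl than in water (-0.64 ± 0.13, limma adjusted p = 0.00298), and the part of root hair cells in the results was not tested. No green shoot marker of the list used here had a probe set named for 1 gene.

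The differences from water chose the members and are given as a description only. Their median MV minus water difference was 1.65 in WT and 1.38 in GRX, and their median NaCl minus water difference was 1.86 and 1.78. Every NaCl and MV array lay above every water array of the same line in 123 of the 127 members, as in 3.19% of all probe sets. Of the 127, 87 had a smallest difference of at least 1 and 15 of at least 2. Water levels of members ranged from 1.04 to 9.0 in WT, and 9 members had a water mean below 2 in both lines, near the trp control. Another 6 probe sets met the differences but not the level of 4. At the edge of the rule, the unnamed probe sets 248311_at, 263320_at and 260221_at had smallest differences of 0.81, 0.83 and 0.83. Just outside it, 264262_at (several genes), 250556_at and 249941_at had 0.79 each.

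**Figure D1:**
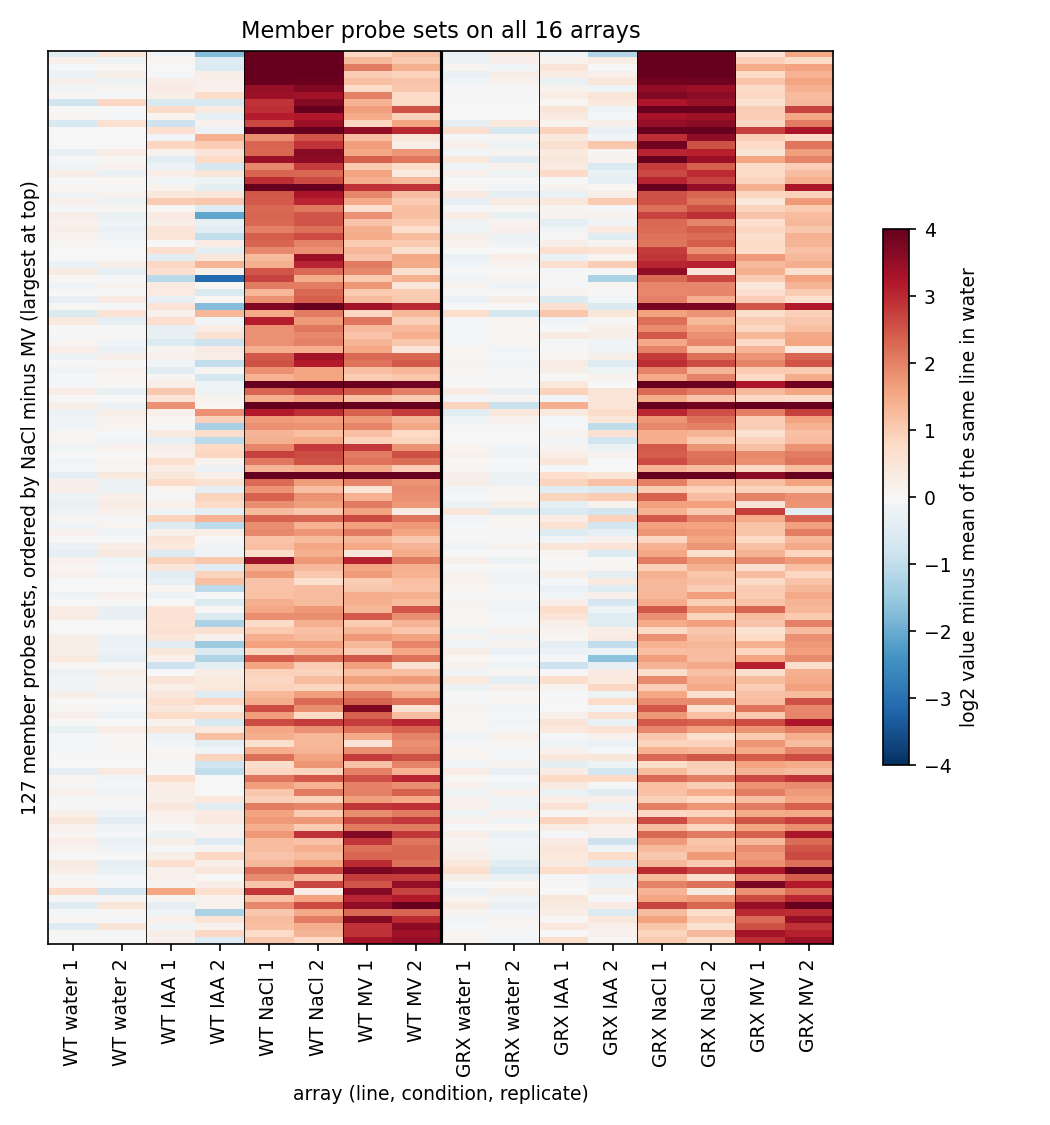
Heat map of the 127 members (vertical axis, ordered by NaCl minus MV) on all 16 arrays (horizontal axis), coloured by log2 value minus the water mean of the same line. By the rule the NaCl and MV group means of each line lie above water in every row, while single columns can be paler. The NaCl columns are deeper at the top and the MV columns at the bottom. The IAA columns are pale in most rows.

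As the heat map of all members shows, probe sets that stand above water in both stresses still lean to 1 of them at either end of the order. Each part of the rule taken by itself was met by more probe sets, the members included. With the level minimum, 465 met the MV part, and the members are 27.3% of these. The NaCl part was met by 1065, of which the members are 11.9%. The rule was met in WT alone by 92 probe sets and in GRX alone by 31. The 5 members with the highest smallest difference are unnamed. Probe set 253046_at led them: it read 3.13, 2.66, 4.05 and 2.27 on the 4 water arrays, 8.31, 7.79, 8.11 and 7.02 in NaCl, and 7.52, 7.35, 7.18 and 7.39 in MV. Its 8 stress arrays were all far above its water arrays.

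GRX480, a member, is the Arabidopsis CC-type glutaredoxin also called ROXY19. In water GRX480 read 4.60 and 4.07 in WT and 4.74 and 3.42 in GRX. In NaCl it read 6.58 and 7.02 in WT and 7.07 and 6.76 in GRX, and in MV 8.14 and 7.98 in WT and 7.33 and 8.30 in GRX. The 3 conditions did not overlap. GRX480 stood 13.2-fold above water in MV (3.73 ± 0.27) and 6.27-fold in NaCl (2.65 ± 0.27). The other measured gene of the antioxidant enzyme list, GR1, encodes glutathione reductase and did not pass in either stress (0.31 ± 0.14 in MV, 0.40 ± 0.14 in NaCl). With another quantile normalization GR1 was called higher in NaCl.

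AT4G13180, a short-chain dehydrogenase of the Rossmann fold family, read 2.70 to 3.1 on the water arrays, 4.94 to 5.33 in NaCl and 5.37 to 5.96 in MV. AT1G75280, related to isoflavone reductase, stood 1.03 ± 0.28 above water in MV and 1.10 ± 0.28 in NaCl. AT1G06620, a 2-oxoglutarate-dependent oxygenase, stood at 0.94 ± 0.27 and 1.49 ± 0.27. The arrays of water, NaCl and MV did not overlap for the dehydrogenase.

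Several named members encode transcription factors. AT1G22810 (ERF019), of the DREB branch of the AP2/ERF family, read 1.82, 2.79, 2.1 and 1.51 in water, 4.24, 4.90, 4.52 and 4.09 in NaCl, and 5.85, 6.43, 5.30 and 5.94 in MV, with WT first in each set. That is 14.2-fold above water in MV (3.83 ± 0.26) and 5.21-fold in NaCl (2.38 ± 0.26), and no condition overlaps another. ORA47, an AP2/ERF factor that acts in jasmonate synthesis, read 2.64, 2.82, 2.29 and 2.08 in water, 7.86, 8.16, 7.91 and 8.18 in NaCl, and 4.8, 4.17, 3.66 and 3.80 in MV. ORA47 was thus high in salt and intermediate in MV, again with no overlap. AT4G28140 (ERF054) and AT2G33710 (ERF112) are 2 further AP2/ERF members. AT4G28140 stood 1.0 ± 0.27 above water in MV and 2.57 ± 0.27 in NaCl, whereas AT2G33710 stood at 2.48 ± 0.18 in MV and 1.28 ± 0.18 in NaCl. AT1G69570, a Dof-type factor of the cycling Dof group, was nearly even at 1.40 ± 0.17 and 1.47 ± 0.17.

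The plot of single arrays also shows members of signalling and protein turnover. AT3G62260, a protein phosphatase 2C, read 2.17 to 2.84 in water, 4.02 to 4.71 in NaCl and 4.59 to 4.86 in MV. AT1G14200, a RING-type ubiquitin ligase family member, stood 1.61 ± 0.22 above water in MV and 1.5 ± 0.22 in NaCl. AT2G17660, of the RIN4 family of immune regulators, stood at 1.58 ± 0.29 and 2.66 ± 0.29, from water readings of 1.17 to 1.74 that are near the trp control. AT1G63750, a TIR-NBS-LRR immune receptor gene, stood at 1.04 ± 0.26 and 1.08 ± 0.26.

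Several members encode proteins of little-known function that come in related pairs. AT1G23710 and AT1G70420 share the DUF1645 domain. AT1G23710 read 4.51 to 4.75 in water, 6.76 to 7.25 in NaCl and 6.49 to 6.86 in MV, and AT1G70420 read 2.96 to 3.33, 4.46 to 4.89 and 5.65 to 6.45. In the former the 2 stresses overlap, and in the latter MV lies above NaCl. AT1G18740 and AT4G11300, of the BPS1-like DUF793 family, stood 1.88 ± 0.21 and 3.54 ± 0.15 above water in NaCl, against 0.94 ± 0.21 and 0.99 ± 0.15 in MV. The neighbours AT5G07860 and AT5G07870, HXXXD-type acyltransferase genes with no protein-coding gene between them in the RefSeq table, stood at 1.26 ± 0.24 and 2.22 ± 0.17 in MV, and at 1.15 ± 0.24 and 1.30 ± 0.17 in NaCl. They were the only adjacent pair among the 57 named genes.

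AT5G61820, related to the nodulin Nod19, read 5.64 to 6.24 in water, 8.26 to 8.50 in NaCl and 7.75 to 8.20 in MV, so that NaCl arrays were the highest. AT3G20340 read 6.18 to 6.43, 8.02 to 8.75 and 8.68 to 9.20, with the 2 stresses overlapping. AT1G76600 read 6.85 to 7.27, 8.83 to 9.08 and 9.16 to 9.78, with MV above NaCl and both above water. The last pair of these genes has no role stated here.

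Sugar transfer to small molecules was represented by 4 UDP-glycosyltransferases: GT72B1, which glucosylates chlorinated phenols and monolignols, UGT73B1, UGT76E12 and IAGLU, which acts on auxin. GT72B1 read 3.39, 3.52, 3.83 and 3.62 in water, 4.53, 4.97, 5.0 and 4.46 in NaCl, and 5.71, 5.79, 6.72 and 6.67 in MV, with the conditions apart from each other. UGT73B1 stood 1.27 ± 0.41 above water in MV and 2.28 ± 0.41 in NaCl. UGT76E12 stood at 1.15 ± 0.50 and 2.21 ± 0.50, with GRX NaCl arrays of 5.95 and 2.91 that differ by more than the response itself. IAGLU stood at 1.06 ± 0.24 and 1.25 ± 0.24. Transport is represented by AT1G61890, a MATE efflux carrier, at 1.20 ± 0.17 and 1.83 ± 0.17.

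These 4 are a small share of their family, which was added as a list after the members were seen. Of 50 glycosyltransferase genes measured under a family symbol, 8 were higher and 2 lower in MV, and 13 were higher and 8 lower in NaCl, members included. Of the 46 that are not members, 6 were higher and 2 lower in MV, 9 were higher and 8 lower in NaCl, and none was higher in both. The rule had already taken out the genes that met its minimum difference in both stresses, which limits that last count. Over the alternatives run, the counts over all 50 genes were 4 to 10 higher and 0 to 6 lower in MV. In NaCl they were 11 to 15 higher and 3 to 8 lower. Without WT water replicate 2, 4 were higher in MV. Without WT water replicate 1, 0 were lower in MV and 3 lower in NaCl. For reference, 4.13% of all probe sets were called higher and 3.35% lower in MV, and 13.3% higher and 12.3% lower in NaCl. The median over the 50 genes was 0.01 in MV and 0.15 in NaCl, against -0.02 and 0.0015 over all probe sets, each over both lines. Close relatives parted: UGT73B5 stood 3.72 ± 0.22 above water in MV and 0.18 ± 0.22 in NaCl, and UGT73B4 at 2.88 ± 0.18 and -0.36 ± 0.18.

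Histone H2B is a core protein of the nucleosome around which DNA is wound, and 5 members encode it, as was noticed after the members had been seen. HTB1 read 4.85, 5.01, 4.62 and 4.63 in water, 6.31, 6.51, 6.14 and 6.60 in NaCl, and 5.93, 6.04, 5.43 and 6.11 in MV. AT3G53650 read 2.90, 3.47, 3.02 and 3.51 in water, 5.04, 4.85, 4.90 and 4.90 in NaCl, and 5.25, 4.93, 3.85 and 5.07 in MV. In both genes every stress array was above every water array, and the 2 stresses overlapped for AT3G53650. Over the 5 genes (with HTB2, AT2G37470 and AT3G09480), the differences from water were 1.10 to 2.24 in MV and 1.07 to 1.70 in NaCl, and -0.09 to 0.55 in IAA. AT3G09480 was higher in MV than in NaCl (NaCl minus MV -0.94 ± 0.21, limma adjusted p = 0.00426), and the other 4 were not called.

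**Figure D2:**
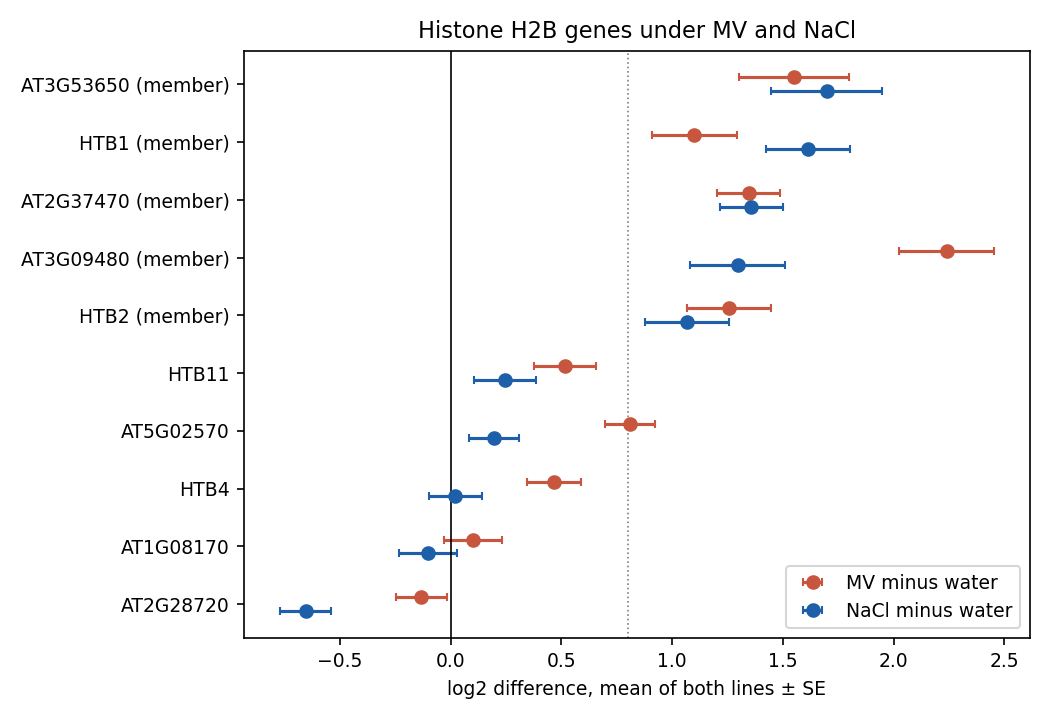
MV minus water and NaCl minus water (horizontal axis, log2, mean of both lines ± SE) for the 10 measured histone H2B genes (vertical axis), with the dotted line at 0.8. The 5 members lie to the right of the line in both stresses, AT5G02570 reaches it in MV only, and AT2G28720 lies below 0 in NaCl.

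As the plot of H2B genes shows, the family did not move as one. The place of the 5 members follows from the rule, which also limits how many of the other genes could be higher in both stresses. Of the other 5 measured H2B genes, 3 were called higher in MV and none lower, and none was called higher and 1 lower in NaCl. HTB4, HTB11 and AT5G02570 rose in MV by 0.47 ± 0.12, 0.51 ± 0.14 and 0.81 ± 0.11 and were not called in NaCl. The HTB4 and HTB11 calls were lost in 9 and 14 of 25 alternatives, which include leaving out any 1 WT water, NaCl or MV array (limma adjusted p up to 0.155 and 0.165), and AT5G02570 lost none. AT2G28720 fell in NaCl (-0.65 ± 0.12). The H2B genes are of 1 family, and their sequences were not compared here. Probes of 1 gene may also bind transcripts of another, so that the split between genes is uncertain. Of 3 linker histone H1 genes, AT2G30620 and AT1G06760 fell in NaCl (-0.80 ± 0.11 and -0.83 ± 0.16) and none was called in MV. No gene of the H2A or of the H3 and H4 list had a probe set named for 1 gene. Of the DNA replication list only PRL, a subunit of the replicative MCM helicase, was measured, and it rose in MV (0.80 ± 0.19) and in NaCl (0.86 ± 0.19). Its MV call was lost without replicate 1 of water in either line, WT MV replicate 1 or GRX MV replicate 2 (limma adjusted p up to 0.101).

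AT1G54050, a small heat shock protein, read 1.55, 1.46, 1.64 and 1.49 in water, 2.27, 2.86, 2.46 and 2.87 in NaCl, and 4.38, 4.86, 4.89 and 4.68 in MV. LEA4-5, a late embryogenesis abundant protein that protects against water loss, read 3.28, 2.89, 3.32 and 3.97 in water, 5.52, 6.12, 6.18 and 5.79 in NaCl, and 4.59, 4.11, 4.10 and 5.33 in MV. The 2 genes lean to opposite stresses.

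The lists of known stress genes put these members in context. Counts of non-members leave out the genes that the rule took for standing above water in both stresses. Of 10 measured heat shock proteins and co-chaperones, AT1G54050 is the only member. Of the other 9, 6 were higher in MV and none lower, while in NaCl 1 was higher and 3 lower, and the medians were 1.26 and -0.41. AT1G53540 and AT2G29500, other small heat shock proteins, stood at 3.91 ± 0.28 and 3.37 ± 0.18 in MV and at -0.41 ± 0.28 and -0.66 ± 0.18 in NaCl. The NaCl call of AT2G29500 was lost without replicate 2 of WT water, WT NaCl or GRX NaCl, or without GRX water replicate 1. AT5G37670, of the same family, rose in both (1.68 ± 0.19 and 1.37 ± 0.19) and missed the level of 4, with a highest group mean of 3.96.

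Of 5 calcium sensor genes, 3 were higher in MV and none in NaCl, where 1 was lower. CML42, a calmodulin-like protein, rose by 1.04 ± 0.22 in MV and fell in NaCl (-2.60 ± 0.22). Of 4 WRKY factors, 3 were higher and 1 lower in MV, and 1 was higher and 1 lower in NaCl. WRKY53, a regulator of leaf senescence, rose in both (1.10 ± 0.27 and 1.03 ± 0.27) but had a GRX NaCl mean of 4.19 against 3.67 in water, below the rule. Its MV call was lost without WT water replicate 1, either WT MV array, either GRX water array or GRX MV replicate 2 (limma adjusted p up to 0.0977), and its NaCl call without WT water replicate 1 or GRX NaCl replicate 1 (up to 0.0592).

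Of 3 stress ubiquitin ligase genes, 2 were higher in MV and none lower, and 1 was higher and 2 lower in NaCl. PUB23, another U-box ligase, was higher in MV (0.95 ± 0.23) and lower in NaCl (-0.73 ± 0.23). Its MV call was lost without WT water replicate 2, WT MV replicate 1, either GRX water array or GRX MV replicate 2 (limma adjusted p up to 0.103). Its NaCl call was lost without any 1 water array, WT NaCl replicate 1 or GRX NaCl replicate 2 (up to 0.133). PUB24, a U-box ubiquitin ligase of immunity, rose in both (1.52 ± 0.24 and 0.90 ± 0.24) without being a member. The NaCl call of PUB24 was lost without water replicate 2 of either line or WT NaCl replicate 1 (limma adjusted p up to 0.0709). Of the 3 ERF and DREB factors measured on the list, ORA47 and AT1G22810 are members and stood above water in both stresses by the rule. AT1G19210 was not called, but models of the compared arrays alone called it higher in NaCl. Of the 5 detoxification glycosyltransferases that are not members, 4 were higher in MV and 1 in NaCl with none lower. None was called in both, a count that the rule limits. The MV call of UGT76B1 among them was lost without WT water replicate 2, WT MV replicate 1 or GRX water replicate 1. The members UGT73B1 and UGT76E12 of that list were called in NaCl alone.

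Of 8 glutathione S-transferases, 1 was higher in MV, and 2 were higher and 1 lower in NaCl, with no member among them. The 1 higher in MV was GSTU25 (1.5 ± 0.37), whose call was lost without WT water replicate 2, WT MV replicate 1, either GRX water array or GRX MV replicate 2 (limma adjusted p up to 0.118). In NaCl, the call of GSTU20 (0.67 ± 0.22) was lost without either WT water array, either WT NaCl array, GRX water replicate 1 or either GRX NaCl array (limma adjusted p up to 0.167). Of 4 hallmark genes of oxidative stress, 2 were higher in MV, and 1 was higher and 1 lower in NaCl. AT1G19020 was raised in MV (1.45 ± 0.23) and lowered in NaCl (-1.83 ± 0.23). Of 2 C2H2 zinc finger regulators, STZ (ZAT10) rose in MV (1.90 ± 0.24), AT2G28200 fell (-0.93 ± 0.11), and neither was called in NaCl. Of 3 abscisic acid and dehydration genes, COR15A fell in MV (-1.10 ± 0.23) and COR15B rose in NaCl (1.10 ± 0.29). The former call was lost without GRX water replicate 2 (limma adjusted p = 0.0533), the latter without WT NaCl replicate 2 or GRX NaCl replicate 1 (up to 0.0646).

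OPCL1, a jasmonate synthesis enzyme and the only measured gene of its list, rose in both (0.83 ± 0.16 and 1.13 ± 0.16). NDB2, a mitochondrial NADH dehydrogenase, was not called (0.66 ± 0.23 and 0.14 ± 0.23), but with array weights it was called higher in MV. The lists of NAC, MYB and heat shock factors, MAP kinase, raffinose and camalexin genes had no probe set named for 1 gene.

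**Figure D3:**
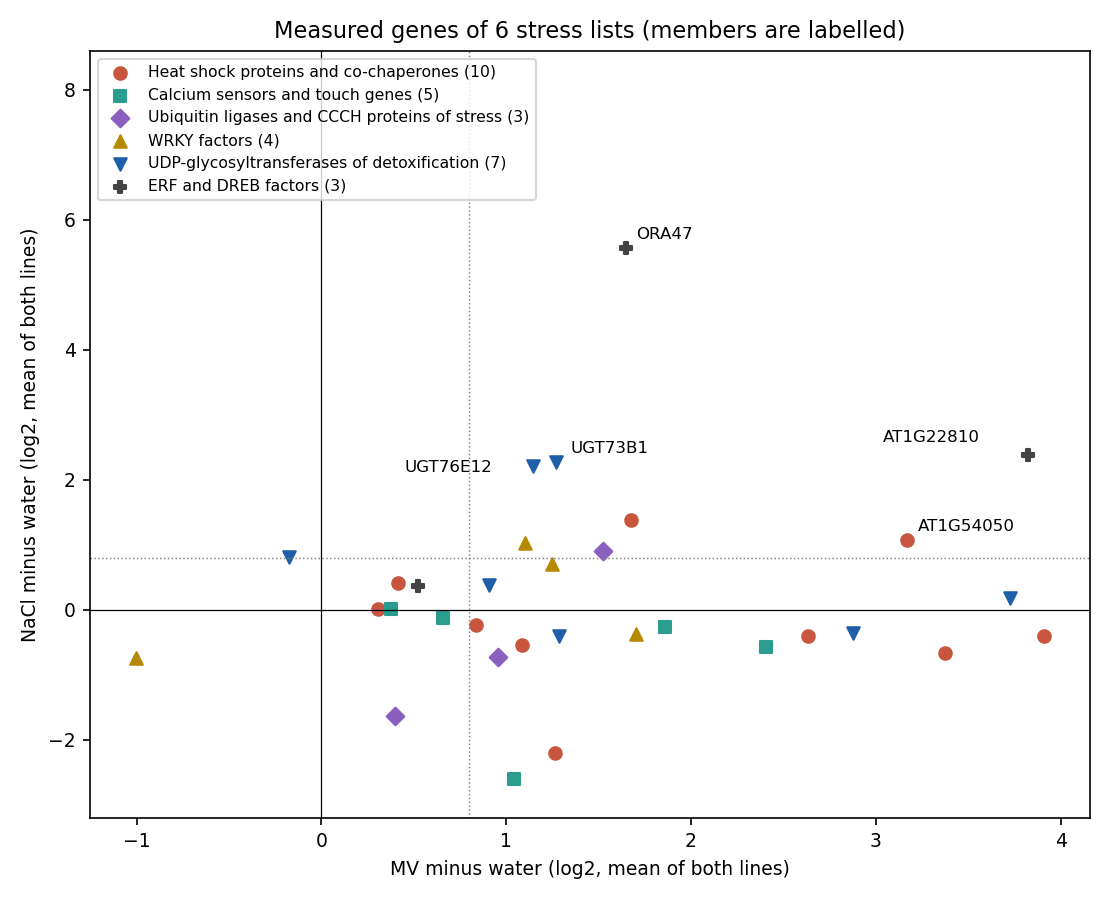
MV minus water (horizontal axis) against NaCl minus water (vertical axis), both log2 means of the 2 lines, for the measured genes of 6 stress lists, with members labelled by name and dotted lines at 0.8. Most heat shock and calcium genes lie to the right at or below 0 on the NaCl axis, while ORA47 and AT1G22810 lie above 0.8 on both.

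The dotted lines in the plot of the stress lists mark the rule's minimum difference, so that the place of the members in it follows from the rule. Both stresses were then compared directly. The rule set no limit on NaCl minus MV, but it chose the members on the same NaCl and MV arrays, so the shares that follow describe the chosen members and are not independent of the choice. Of the 127 members, 63 (49.6%) were called between NaCl and MV over both lines, against 30.2% of all probe sets. Of these, 40 (31.5%) were higher in NaCl, against 16.2% of all probe sets, and 23 (18.1%) were higher in MV, against 14.0%. The 4 NaCl and 4 MV arrays did not overlap in 41 members higher in NaCl (32.3%, against 16.9% of all) and in 18 higher in MV (14.2%, against 15.0%). The MV side of that last count was near the background. The median NaCl minus MV difference was 0.18 over the members and 0.01 over all probe sets. Of the 57 members with 1 gene, 26 were called, 13 in each direction.

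AT1G73480, an alpha/beta hydrolase gene, read 9.32, 9.38, 9.29 and 9.32 in NaCl, against 4.55, 4.90, 4.14 and 5.13 in MV and 3.24, 4.22, 3.29 and 3.87 in water. Its NaCl arrays were almost equal and its lowest MV array (4.14) lay below its highest water array (4.22). It was 25.1-fold higher in NaCl than in MV (4.65 ± 0.36, limma adjusted p = 7.71e-07). ORA47 was 15.2-fold higher (3.92 ± 0.18, limma adjusted p = 1.66e-08) and AT4G11300 5.84-fold higher (2.55 ± 0.15, limma adjusted p = 8.77e-08). All 4 NaCl arrays were above all 4 MV arrays in each of these genes.

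AT5G56980 (1.58 ± 0.23), AT4G28140 (1.57 ± 0.27), LEA4-5 (1.37 ± 0.27) and AT1G21680 (1.34 ± 0.16) were also higher in NaCl. AT1G75230, a DNA glycosylase family gene, was higher by 1.27 ± 0.38 (limma adjusted p = 0.0226). That last call was lost without WT NaCl replicate 2, WT MV replicate 2, GRX NaCl replicate 2 or either GRX MV array (limma adjusted p = 0.066, 0.0817, 0.0689, 0.0614 and 0.0507). Of the unnamed members, 263174_at was 18.7-fold higher in NaCl (4.23 ± 0.18).

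In the other direction, AT1G54050 had the largest value among named members (NaCl minus MV -2.09 ± 0.18, limma adjusted p = 1.88e-06). GT72B1 (-1.49 ± 0.23), AT1G22810 (-1.44 ± 0.26), AT1G70420 (-1.44 ± 0.15) and AT2G33710 (-1.20 ± 0.18) followed. GRX480 was also higher in MV (-1.08 ± 0.27, limma adjusted p = 0.0088), and so were AT5G07870 (-0.93 ± 0.17) and AT3G26910 (-0.75 ± 0.14). The AP2/ERF members thus fell on both sides, ORA47 and AT4G28140 with NaCl and AT1G22810 and AT2G33710 with MV.

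**Figure D4:**
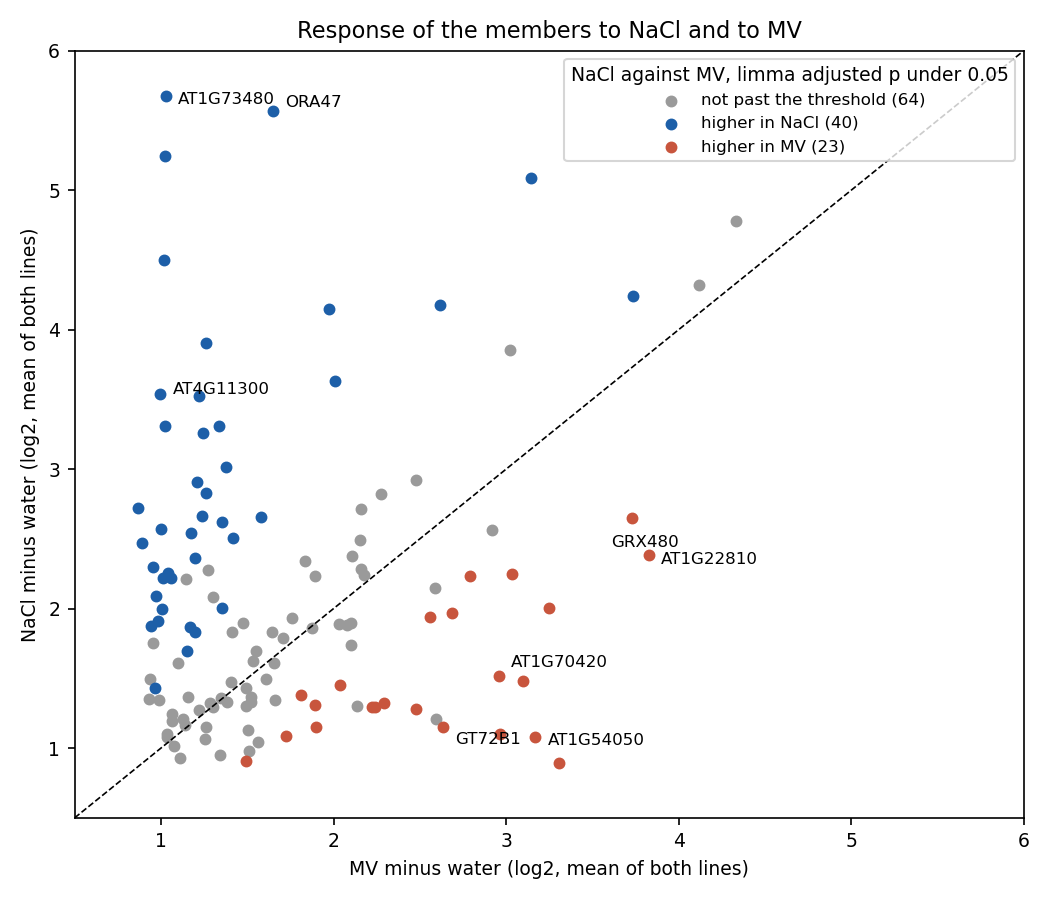
MV minus water (horizontal axis) against NaCl minus water (vertical axis), both log2 means of the 2 lines, for the 127 members, coloured by the limma call between NaCl and MV, with the dashed line of equal response. The 40 members higher in NaCl lie above the line, led by AT1G73480 and ORA47, and the 23 higher in MV lie below it, with AT1G54050, GT72B1, AT1G22810 and GRX480 among them.

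The scatter plot of the members also shows the 64 members that were not called, most of them along the line of equal response. Among these, AT1G23710 (NaCl minus MV 0.27 ± 0.16), ZCF37 (0.08 ± 0.19), AT2G37470 (0.01 ± 0.14) and AT2G32150, a HAD-type hydrolase gene (0.21 ± 0.15), were nearly even. ZCF37 read 4.13 to 4.56 in water, 6.08 to 6.27 in NaCl and 5.60 to 6.56 in MV, so that the NaCl arrays fell within the range of the MV arrays.

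Auxin was the third treatment, and it did not enter the differences of the rule, although its comparison uses the same water arrays. The rule favours members that read low on those arrays, which by itself lifts their IAA minus water values. The shares and the median that follow are thus not independent of the choice of members. None of the 127 members was called between IAA and water by limma over both lines, against 0.620% of all probe sets (116 higher and 25 lower). At an unadjusted p under 0.05 there were 29 members (22.8%), against 12.5% of all probe sets. Their median difference was 0.13, against 0.02 over all. The unnamed probe set 255895_at came closest (0.85 ± 0.19, limma adjusted p = 0.0705). Among members with 1 gene it was AT4G28703 (0.88 ± 0.22, limma adjusted p = 0.108). AT4G28703 read 5.21 and 5.72 in WT IAA against 4.35 and 4.28 in water, and 4.46 and 5.10 in GRX IAA against 4.06 and 4.27. All IAA arrays of AT4G28703 were above its water arrays within each line. AT2G17660 stood at 0.95 ± 0.29 and AT4G13180 at 0.57 ± 0.17 (limma adjusted p = 0.208 and 0.202).

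UGT73B1 had the lowest value, -1.36 ± 0.41 (limma adjusted p = 0.211), with 3.58 and 1.54 in WT IAA against 4.74 and 4.58 in water. Its fall was smaller in GRX: GRX minus WT was 1.38 ± 0.58 in IAA and -0.12 ± 0.58 in water, neither of them called. AT1G14200 stood at -0.81 ± 0.22 and AT2G24550 at -0.58 ± 0.18 (limma adjusted p = 0.176 and 0.217). The lowest UGT73B1 reading is on the WT IAA array with the actin difference of 6.10, and its part in the result was not tested. Without IAA replicate 2 of both lines no member was called either. Without WT IAA replicate 1, which leaves that array alone in its group and assumes that it varies like the other groups, 18 members (14.2%) were called, 10 higher and 8 lower, against 11.4% of all probe sets. They include AT4G28703 (1.01, limma adjusted p = 0.0174), UGT73B1 (-1.86, 0.00676) and AT1G14200 (-1.07, 0.00727). AT2G17660 was called without WT NaCl replicate 1 and without replicate 2 (0.95, limma adjusted p = 0.0393 each time) and AT4G28703 without GRX IAA replicate 1 (1.04, limma adjusted p = 0.0476).

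The 2 lines were compared last. No member was called by limma between GRX and WT in water, IAA, NaCl or MV, or over their mean, and the calls were 0% of all probe sets in each of these comparisons. At an unadjusted p under 0.05, 21 members (16.5%) differed over the mean of the 4 conditions, 12 higher and 9 lower in GRX, against 5.85% of all probe sets. Within single conditions such members numbered 1 in water (0.787%, against 1.12% of all probe sets), 10 in IAA (7.87%, against 7.32%), 3 in NaCl (2.36%, against 4.48%) and 7 in MV (5.51%, against 5.33%). The rule chose the members on the water, NaCl and MV arrays and on a minimum level, which most probe sets did not have to meet. These shares, that over the mean included, are thus not independent of the choice and do not show line differences gathered in the members. GT72B1 stood 0.51 ± 0.17 higher in GRX over the 4 conditions (limma adjusted p = 0.696) and 0.95 ± 0.33 higher in MV (limma adjusted p = 0.789), where its GRX arrays read 6.72 and 6.67 and its WT arrays 5.71 and 5.79. ORA47 stood lower in GRX in MV (-0.75 ± 0.25, limma adjusted p = 0.769), with 3.66 and 3.80 against 4.8 and 4.17. Both genes were named for their small p-values in MV, so that their separate arrays there follow from the choice. For GRX480 the arrays of the 2 lines overlapped in MV.

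In IAA, 11 members (8.66%) were called between the lines without WT IAA replicate 1, 8 of them higher in GRX, against 8.45% of all probe sets. WT IAA is then the single array with the actin difference of 6.10, and the share of members is close to that of all probe sets.

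The response to MV was larger in WT than in GRX in 99 of the 127 members (78.0%). The same held for 367 of the 465 probe sets that met the MV part of the rule (78.9%), a share close to that of the members. The response to NaCl was larger in WT in 67 members (52.8%). The median difference between the lines' MV responses (GRX minus WT) was -0.20 over the members and 0.02 over all probe sets. The members' median GRX minus WT difference was 0.06 in water and -0.18 in MV. The rule chose the members on these same arrays, so these counts and medians are not independent of the choice. All members share those arrays and are not repeats of a line difference. No member was called for a difference between the lines in the MV response, in the NaCl response or in NaCl minus MV, as none of all probe sets was (0%). At an unadjusted p under 0.05 there were 0, 0 and 3 members by limma (0, 0 and 2.36%, against 2.2, 2.16 and 5.86% of all probe sets), and the rule, which asks for 0.8 in both lines, limits the first pair of these differences. The 3 include ORA47 (0.79 ± 0.36) and AT2G17660 (1.25 ± 0.57), both with a larger NaCl minus MV difference in GRX (limma adjusted p = 0.836 each).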

How the data were processed

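Whole-seedling RNA was hybridised to 16 arrays, 2 for each of 8 groups. The authors deposited log2 probe set values, and the submitters' processing notes name RMA, with no version. The sources used here do not give the software or the probe set definitions. RMA includes quantile normalization, which would hide a shift shared by most transcripts, and it compresses differences near background. Precision is limited by the number of arrays.

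The member rule was applied to group means of the 22746 non-control probe sets, of which 13513 have 1 gene in the platform annotation, 503 several and 8730 none. All 57 named members matched a locus in the RefSeq gene table (TAIR10.1), used for names and neighbours. A model of 8 group means was fitted by lmFit and eBayes of limma 3.58.1 under R 4.3.3 (no trend, 8 residual and 4.52 prior degrees of freedom), with Benjamini-Hochberg adjustment over all probe sets. The fit was also run on simulated data with independent noise on each array. Some same-numbered arrays of the real data deviated together, so that run does not show how the fit performs on these data.

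The members, the naming rule and the 21 gene lists were chosen with earlier results of these data known, and the histone, replication and glycosyltransferase family lists were added after the members were seen. Lists were matched by locus. Named genes are the 16 with the highest smallest difference, the 8 largest non-overlapping calls in each direction between NaCl and MV, list members, and the smallest p-values where a comparison had no call. Others were chosen after their values were seen (DUF1645, DUF793, acyltransferase and H2B genes and those with a known role). Alternatives were another quantile normalization, median centring, a mean of at least 3, array weights, an intensity trend, models of the compared arrays alone, a block for the replicate number, a table without cross-hybridising suffixes, IAA replicate 2 left out in both lines, each array left out in turn, and other limits of the rule.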

Additional observations from a re-analysis of the deposited data

How the results depend on the processing

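With a minimum difference of 0.6 in place of 0.8 the rule gave 207 members. Leaving out each array in turn gave 106 to 136 members, and 69 of the 127 met the rule whichever single array was left out. The count of 63 members called between NaCl and MV was 55 to 69 when each array was left out and 55 to 70 over all alternatives, with 49 of the 63 called in every alternative run on them and none reversed. Of 399 values of the 16 named calls under alternatives, 394 kept their call, and the other 5 are those of AT1G75230. Between IAA and water the count of 0 became 1 with an intensity trend, and 0 to 18 when each array was left out. Between the lines in IAA it was 0 to 11, with 11 without WT IAA replicate 1. The causes were not tested. The other comparisons of the lines gave 0 under all alternatives run. With the replicate number as a block, 65 members were called between NaCl and MV and 0 elsewhere. The labels give no pairing, and same-numbered arrays deviated together with correlations of -0.11 to 0.36 over 28 pairs of groups, 9 of them over 0.1. With 2 arrays per group, small differences between the lines may go uncalled, and values near the trp control have compressed differences.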
